A study of Mus musculus with 8 samples.

Results

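A set of 10 RNAs that are not known for being translated were followed through ribosome footprint libraries of mouse dorsal root ganglia (DRG), where the cell bodies of sensory neurons lie, beside the spinal cord. The RNAs were Rmrp, Rpph1, Rny1, Rny3, Malat1, Meg3, Neat1, Gas5, Snhg11 and Snord17, 10 of the 48315 gene symbols in the files. They were picked by name, as non-coding RNAs with many reads in these same libraries, so their levels are a description and no test of their abundance was made. The annotation used here (GENCODE M21) lists 9 of them as not protein-coding, among 26645 such symbols, and lists Snhg11 as protein-coding. There were 8 libraries, 4 labelled female and 4 labelled male, all from wild-type mice of the strain labelled SW that had been given saline, and each carried a replicate number from 1 to 4. The sources used here give neither the ages of the animals nor whether each library came from its own animal or from a pool. Should libraries share animals, the p-values would measure a spread between samples that may be technical only. Where reads lie within a gene was not examined, so a read on one of these RNAs cannot be taken as a footprint of a translating ribosome.

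Rmrp and Rpph1 are the RNA subunits of a pair of related endonucleases: RNase MRP, which acts in the maturation of ribosomal RNA, and RNase P, which trims the leader off precursor transfer RNAs. Rny1 and Rny3 are Y RNAs, short RNA polymerase III transcripts that bind the Ro protein and, at their uridine-rich ends, the La protein. Malat1 and Neat1 are long RNAs kept in the nucleus, where Malat1 is found at nuclear speckles and Neat1 is the scaffold of paraspeckles, and Meg3 is a maternally expressed long RNA of an imprinted region that neurons express. Gas5 and Snhg11 are host genes whose introns carry small nucleolar RNAs (snoRNAs), and Snord17 is a C/D box snoRNA, a class that guides methylation of ribosomal RNA. Ribosomes are known to engage the spliced Gas5 RNA, which is then a substrate of nonsense-mediated decay.

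The short members are given in full or in large part, since most reads of the set fall on them; the sequences are from the GENCODE M21 transcripts on GRCm38, written as DNA from the 5′ end. Rny1 lies on chromosome 6 from 47788069 to 47788180 on the minus strand, and Rny3 lies next to it from 47781624 to 47781725 on the plus strand. Capitals in the Y RNA sequences mark runs of at least 8 bases found in both.
Rny1: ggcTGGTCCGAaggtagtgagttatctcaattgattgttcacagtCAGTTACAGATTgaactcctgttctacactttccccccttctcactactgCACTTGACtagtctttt
Rny3: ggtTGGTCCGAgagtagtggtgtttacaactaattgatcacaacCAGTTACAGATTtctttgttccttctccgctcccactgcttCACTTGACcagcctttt
A global alignment of the Y RNAs had 81 identical positions of 112 (72.3%). The shared runs stand near the start, in the middle and near the end, and both RNAs end in TTTT, the letters at which RNA polymerase III stops; 1.34% of 141767 annotated transcripts end that way.

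The catalytic RNAs follow, with capitals for runs of at least 9 bases found in both. Rmrp lies on chromosome 4 from 43492788 to 43493058, and Rpph1 on chromosome 14 from 50807449 to 50807767, both on the minus strand; of the 319 bases of Rpph1 the first 260 are given.
Rmrp: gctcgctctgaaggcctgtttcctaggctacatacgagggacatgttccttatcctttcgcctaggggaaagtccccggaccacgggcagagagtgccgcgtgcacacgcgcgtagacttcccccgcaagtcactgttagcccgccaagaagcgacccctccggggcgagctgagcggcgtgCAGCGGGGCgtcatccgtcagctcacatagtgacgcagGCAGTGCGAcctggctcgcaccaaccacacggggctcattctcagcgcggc
Rpph1: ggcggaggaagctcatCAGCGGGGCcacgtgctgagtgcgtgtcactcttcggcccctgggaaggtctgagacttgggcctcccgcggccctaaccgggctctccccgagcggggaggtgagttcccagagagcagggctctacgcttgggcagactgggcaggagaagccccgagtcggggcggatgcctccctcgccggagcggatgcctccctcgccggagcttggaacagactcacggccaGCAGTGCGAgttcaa
Their global alignment had 176 identical positions of 340 (51.8%), with 2 shared runs of 9 bases, so these RNAs were less alike in letters than the Y RNAs. Snord17 lies on chromosome 2 from 144265979 to 144266216 on the minus strand, inside the gene Snx5, and its capitals mark the box C core TGATGA and the box D CTGA.
Snord17: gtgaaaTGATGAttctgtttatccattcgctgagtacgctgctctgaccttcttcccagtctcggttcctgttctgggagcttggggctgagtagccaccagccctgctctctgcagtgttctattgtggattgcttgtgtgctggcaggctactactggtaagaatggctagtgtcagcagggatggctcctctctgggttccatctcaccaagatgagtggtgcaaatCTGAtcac
TGATGA within the first 20 bases together with CTGA within the last 20 was found in 68 of 99 transcripts of Snord genes (68.7%) and in 0.267% of all transcripts. For Gas5 the first 30 bases of 1 annotated transcript, on chromosome 1 from 161035166 to 161038539 on the plus strand, are shown with the pyrimidine run at its start in capitals, because Gas5 is known as an RNA with a terminal pyrimidine tract.
Gas5: CTTTCggagctgtgcggcattctgagcagg
Of the 25 annotated Gas5 transcripts, 5 start with C and 4 further pyrimidines, as do 2.02% of all transcripts. Matches to such letters describe these sequences and were not tested for any role.

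The libraries differed in depth, composition and agreement with their labels. Assigned reads numbered between 5729314 and 11514369 in the female-labelled libraries and between 3697690 and 12714551 in the male-labelled ones. Levels are in CPM (reads per 1000000 reads assigned to genes), with no correction for gene length. Protein-coding genes held 86.3% to 93.8% of reads in female-labelled libraries and 78.3% to 88.2% in the male-labelled ones. Mitochondrial ribosomal RNA held 3.21% to 7.69% in female-labelled libraries and 4.92% to 15.6% in the male-labelled ones. In 3 libraries the genes that differ between the sexes went against the label: those labelled female 1 and female 3 had 121 and 138 CPM over 4 Y-linked genes and no more than 0.175 CPM of Xist, and the one labelled male 1 had 2.7 CPM and 10.6 CPM. The members and the gene lists are therefore also compared without these 3 libraries. All 11 markers of sensory neurons fixed for this check were detected in every library, with a summed level of 8835 to 11273 CPM in female-labelled libraries and 7250.5 to 10195 CPM in the male-labelled ones. Markers of skeletal muscle and of spinal cord glia were present too, muscle at 2430 to 7304 CPM (female-labelled) against 2890.4 to 6012 CPM (male-labelled) and glia at 818 to 911 CPM (female-labelled) against 836 to 2215 CPM (male-labelled), with the highest glial sum in the library labelled male 2. For 2 marker lists the labels did not overlap: 4 markers of fibroblasts summed to 10024 to 10902 CPM (female-labelled) against 11020.3 to 15064 CPM (male-labelled), and 4 of bone and cartilage to 214 to 261 CPM (female-labelled) against 314 to 384 CPM (male-labelled). The labels overlapped for the other lists checked, of satellite glia, myelinating Schwann cells, macrophages, red cells with neutrophils, and endothelium. All markers of muscle, spinal cord glia, fibroblasts, and bone and cartilage were detected in all libraries, and the part of such tissue in the results was not tested. In this bulk tissue, fewer cells of a type and less RNA per cell cannot be told apart.

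All 10 RNAs were above the floor of 3 reads in all 8 libraries, with between 24.5 and 34756 reads each. Together they took 0.274%, 0.440%, 0.267% and 0.335% of assigned reads in the libraries labelled female 1 to 4, and 0.631%, 0.796%, 0.428% and 0.556% in the ones labelled male 1 to 4. Rmrp, Rpph1 and Rny1 made up between 77.5% and 93.2% of that sum in each library. Per kilobase of annotated exon the order was Rmrp at 8615 ± 4722 CPM per kilobase (SD, n = 8), Rny1 at 7938 ± 2399, Rpph1 at 2575 ± 1639.5, Rny3 at 1720.1 ± 1473, Snord17 at 276 ± 183 and Malat1 at 42.5 ± 31.7. Gas5, Snhg11, Meg3 and Neat1 followed at 2.65 ± 1.51, 2.57 ± 1.15, 1.58 ± 1.54 and 0.844 ± 0.417 CPM per kilobase. Neighbours in this order overlapped within 1 SD apart from the steps from Rny1 down to Rpph1, from Snord17 down to Malat1, and from Malat1 down to Gas5. Exon length counts every annotated exon once, and for the long genes (20771 bases for Neat1 and 18089 for Meg3) only part of it may be used in these cells. By reads alone, Rmrp ranked 7 among the symbols not listed as protein-coding, Rny1 14, Rpph1 15, Malat1 25, Rny3 37, Snord17 85, Meg3 175, Neat1 247 and Gas5 363.

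The level of every member varied between libraries by more than that of most genes. The SD of log2(CPM + 1) over the 8 libraries was 1.39 for Rny3, 1.24 for Meg3, 1.03 for Snord17, 0.91 for Malat1, 0.82 for Rmrp and 0.77 for Rpph1, and lay between 0.47 and 0.62 for Neat1, Gas5, Snhg11 and Rny1. Its median was 0.27 over the 15720 genes tested, those averaging 1 CPM or more, and 0.42 over the 1638 of these not listed as protein-coding. The highest library exceeded the lowest 12.5-fold for Rny3, 10.3-fold for Meg3 and 9.67-fold for Snord17, and 2.70-fold for Rny1, the steadiest of the 10. Leaving out the library at 1 end of the range lowered the widest of these: the fold was 7.63 for Rny3 without male 2, 6.56 for Meg3 without male 4 and 5.18 for Snord17 without male 1. For Rmrp it was 5.25 with all libraries and 3.27 without male 2, for Rpph1 4.97 and 2.59 without male 1, for Malat1 5.89 and 3.12 without male 4, and for Snhg11 3.65 and 2.08 without male 4. Over the genes tested, the median of this fold was 1.83, and over those not listed as protein-coding it was 3.43.

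**Figure D1:**
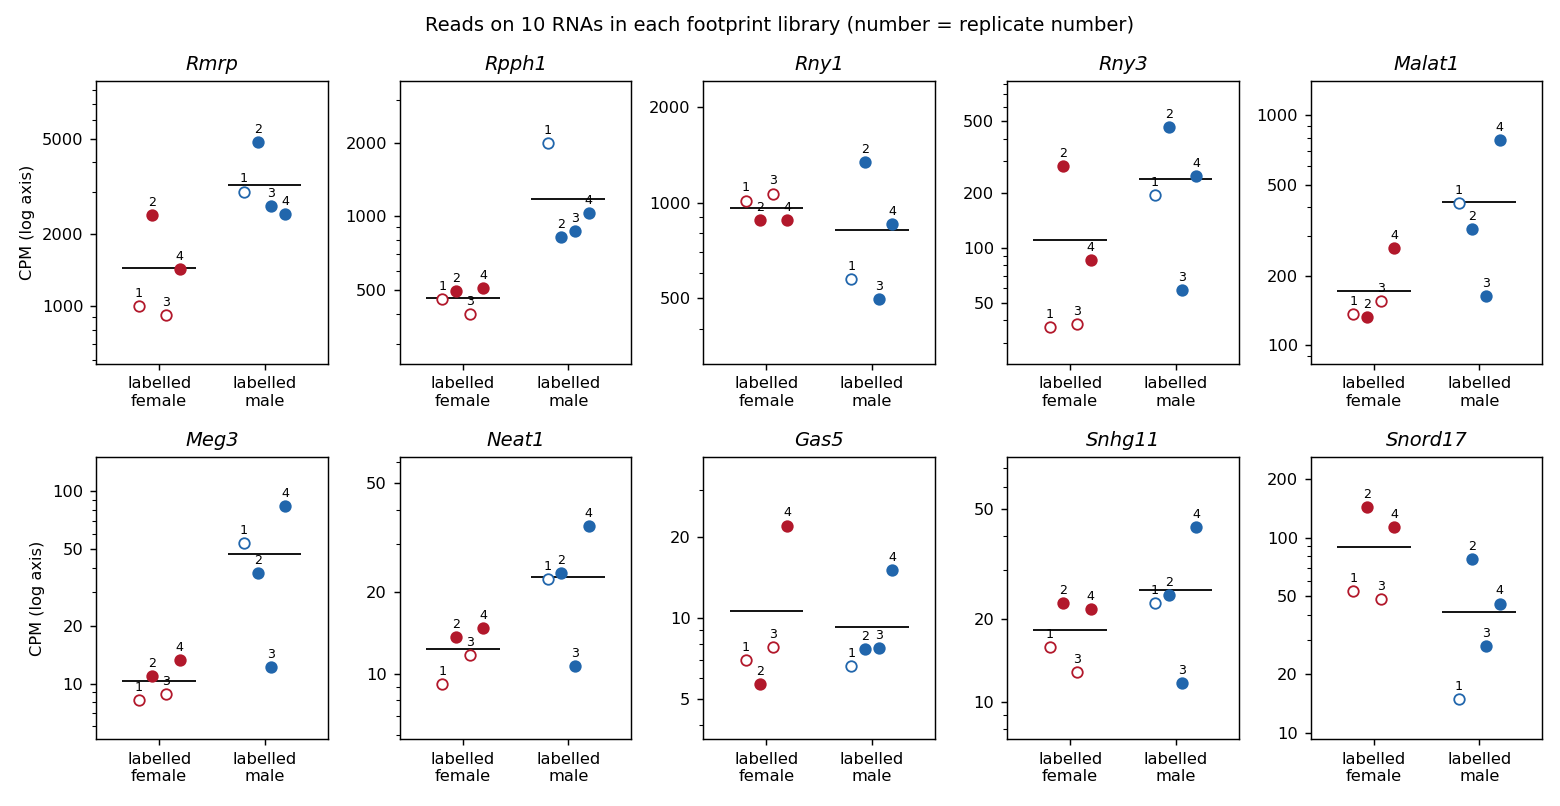
Reads on each of the 10 RNAs, in CPM on a log axis, in the 4 female-labelled libraries (left of each panel) and the 4 labelled male (right). Digits are replicate numbers, open circles are the 3 libraries that go against their label, and lines are group means; Rmrp and Rpph1 are the 2 panels in which the labels do not overlap.

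Rmrp, the RNase MRP RNA, was at 1005, 2414, 923 and 1429.6 CPM in the libraries labelled female 1 to 4, against 3018, 4849, 2617 and 2422 CPM in the ones labelled male 1 to 4. The groups did not overlap, although the highest library labelled female, number 2, lay just under the lowest labelled male, number 4. Rmrp averaged 1443 ± 684 CPM in female-labelled libraries and 3226 ± 1109.6 CPM in the male-labelled ones (SD, n = 4 each). Its log2 fold change, female minus male, was -1.21 (SE 0.31), with a limma adjusted p of 0.372. Ccdc107, a protein-coding gene that overlaps Rmrp on the other strand, was at 46.4, 108, 47.0 and 78.1 CPM in the female-labelled libraries and at 383, 82.9, 64.5 and 131 CPM in the male-labelled ones. The sources used here do not say whether reads were counted by strand, so reads of these overlapping genes cannot be told apart.

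Rpph1, the RNase P RNA, was at 458, 495, 399 and 507 CPM in the female-labelled libraries, against 1984, 821, 870.3 and 1033 CPM in the male-labelled ones. The groups did not overlap, and the highest value came from male 1, a library that goes against its label. Its mean was 465 ± 48.6 CPM in female-labelled libraries and 1177 ± 546 CPM in the male-labelled ones, a log2 fold change of -1.25 (SE 0.25, limma adjusted p 0.372). Ccnb1ip1, which overlaps Rpph1 in part on the same strand, averaged 0.273 CPM. Rmrp and Rpph1 were the members whose labelled groups did not overlap. Of all genes tested, 1.13% had all 4 female-labelled libraries below all 4 labelled male, and 3.43% had the opposite.

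For the Y RNAs, the order of the libraries differed. Rny1 was at 1015, 882, 1068 and 881 CPM in the female-labelled libraries, against 575, 1341, 497 and 853 CPM in the male-labelled ones. Both the highest and the lowest library were labelled male, and the female-labelled libraries lay close together between them. Its log2 fold change was 0.34 (SE 0.26, limma adjusted p 0.544). Rny3 was at 36.8, 281, 38.2 and 85.4 CPM in the female-labelled libraries, against 195, 461, 58.3 and 248 CPM in the male-labelled ones. The groups overlapped, number 2 was highest under both labels, and female 1 and female 3, which go against their label, were lowest of all. Its log2 fold change was -1.30 (SE 0.69, limma adjusted p 0.402). Rny1 and Rny3, which share most of their letters and lie side by side, had a correlation of r = 0.17 across the 8 libraries (exact permutation p adjusted over 45 pairs 0.866).

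Malat1 and Neat1 lie near each other on the minus strand of chromosome 19, from 5795690 to 5802672 and from 5824708 to 5845478, and Meg3 lies on the plus strand of chromosome 12 from 109541001 to 109571726. Malat1 was at 137, 133, 156 and 265 CPM in the female-labelled libraries, against 415, 320.0, 164 and 784 CPM in the male-labelled ones. Male 3 lay within the range of the female-labelled libraries, and number 4 was highest under both labels. The log2 fold change was -1.12 (SE 0.40, limma adjusted p 0.372). Meg3 was at 8.2, 11, 8.86 and 13.3 CPM in the female-labelled libraries, against 53.8, 37.8, 12.2 and 84.2 CPM in the male-labelled ones. Here too male 3 sat among the female-labelled libraries, while the other 3 labelled male were above them all. Its log2 fold change of -1.82 (SE 0.45, limma adjusted p 0.372) was the farthest from 0 among the 10.

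Neat1 was at 9.22, 13.6, 11.7 and 14.7 CPM in the female-labelled libraries, against 22.2, 23.4, 10.7 and 34.7 CPM in the male-labelled ones. Male 3 again lay low, and number 4 was highest under both labels; the log2 fold change was -0.75 (SE 0.29, limma adjusted p 0.372). Snhg11 was at 15.8, 22.8, 12.9 and 21.7 CPM in the female-labelled libraries, against 22.9, 24.4, 11.7 and 42.8 CPM in the male-labelled ones. Its groups overlapped, with male 3 lowest and male 4 highest, and its log2 fold change was -0.36 (SE 0.32, limma adjusted p 0.598).

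The host gene Gas5 lies on the plus strand of chromosome 1 from 161034422 to 161038539, and Snhg11 on that of chromosome 2 from 158375638 to 158386145. Gas5 was at 7.02, 5.68, 7.8 and 22.1 CPM in the female-labelled libraries, against 6.64, 7.7, 7.74 and 15.1 CPM in the male-labelled ones. The 6 libraries other than number 4 lay close together, and number 4 stood above them under both labels. In the shallowest library, male 1, the value rests on about 25 reads, with an exact binomial 95% interval of 4.38 to 9.98 CPM that covers counting error only. The log2 fold change of Gas5 was 0.05 (SE 0.37, limma adjusted p 0.957), and it turned to -0.04 when values were rescaled to protein-coding reads. Gas5 encloses 10 rows of snoRNA genes, whose reads were assigned to rows of their own and summed to 218, 694, 240.1 and 709 CPM in the female-labelled libraries, against 243, 342, 258 and 552 CPM in the male-labelled ones. That was between 30.8 and 122 times the Gas5 row in the same library, and the sum was high in number 2 as well as number 4, unlike Gas5 itself. Snhg11 encloses 2 such rows, which summed to between 34.5 and 51.4 CPM in female-labelled libraries and between 39.9 and 115 CPM in the male-labelled ones. For Gas5 and Neat1 no value in any library came to a whole number of reads within 0.05 of a read, and for Snhg11 1 of 8 did, so parts of reads were assigned to these rows.

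Snord17 was at 53.4, 144, 48.5 and 113 CPM in the female-labelled libraries, against 14.9, 77.3, 27.8 and 46.0 CPM in the male-labelled ones. The groups overlapped, number 2 was highest under both labels, and within each number the library labelled female was the higher one. It averaged 89.7 ± 46.5 CPM in female-labelled libraries and 41.5 ± 27.1 CPM in the male-labelled ones, a log2 fold change of 1.18 (SE 0.48, limma adjusted p 0.372). The host gene Snx5, a sorting nexin, had 31.3 to 40.1 CPM in female-labelled libraries and 23.0 to 37.7 CPM in the male-labelled ones.

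Between the labelled sexes, no member passed the threshold of an adjusted p of 0.05 when the libraries were taken as 4 against 4, and neither did any other gene: limma called 0 of 15720 genes (0.0%). At an unadjusted p under 0.05, 2099 genes stood out, 1877 of them higher in female-labelled libraries (11.9%) and 222 lower (1.41%). Of the members, 6 were in that set, namely Rmrp, Rpph1, Malat1, Meg3 and Neat1 with lower means in female-labelled libraries and Snord17 with a higher one. The median log2 fold change was -0.93 over the 10 members and 0.15 over all genes tested. Relative to that median of all genes, which scaling by the median ratio brought to 0.00417, the members lay at -1.96 for Meg3, -1.45 for Rny3, -1.39 for Rpph1, -1.36 for Rmrp, -1.27 for Malat1, -0.89 for Neat1, -0.50 for Snhg11, -0.09 for Gas5, 0.19 for Rny1 and 1.04 for Snord17.

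With the replicate number as a block, which compares libraries of the same number, 27 of 15720 genes passed (0.172%), 10 higher in female-labelled libraries (0.0636%) and 17 lower (0.108%). Of the members, 6 were among the 27: Rmrp, Rpph1 and Meg3 fell in female-labelled libraries (limma adjusted p 0.00382 each), as did Rny3 (0.0107) and Malat1 (0.0153), and Snord17 rose (0.00382). Rmrp, Rpph1, Rny3, Malat1 and Meg3 were lower in the library labelled female in 4 of 4 numbers, and Snord17 was lower in 0 of 4. These counts come from the same differences that the block tests, so they add no support. Their share over all genes was not computed. Numbers 1 and 3 hold the libraries that go against their label: female 1, male 1 and female 3. Only in numbers 2 and 4 did the sex-linked genes of both libraries go with their labels. No fit with the block left out numbers 1 and 3 together. The calls under the block did not hold in every form of the comparison. When values were rescaled to protein-coding reads with the block kept, 0 of 16009 genes passed (2887 at an unadjusted p under 0.05), and the smallest adjusted p was 0.125. The log2 fold changes were no nearer 0 there for Rmrp (-1.31, SE 0.17), Rpph1 (-1.35, SE 0.22), Rny3 (-1.40, SE 0.27), Malat1 (-1.22, SE 0.22) and Meg3 (-1.92, SE 0.32), and that of Snord17 was 1.09 (SE 0.13). Leaving out number 1 left Rmrp, Rpph1 and Snord17 called, at adjusted p of 0.0451, 0.0239 and 0.0313. Over all genes, the block called 6, 100, 163 and 126 when numbers 1, 2, 3 and 4 were left out in turn, and 3, 6, 7 and 6 members. With so few pairs left, the p-values lean on the spread that limma pools over genes. The smallest limma adjusted p was 5.52e-36 without number 3. Such values do not measure the spread of each gene between pairs. Reads of mitochondrial ribosomal RNA were at 5.01 ± 1.98% of reads in female-labelled libraries and 10.1 ± 4.51% in the male-labelled ones (SD, n = 4 each), and their part in these differences was not tested.

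Without the 3 libraries that go against their label, which leaves 2 labelled female and 3 labelled male, no member was called by limma. The fit called 5 of 15769 genes (0.0317%), all lower in female-labelled libraries. They were the Y-linked Ddx3y, Eif2s3y, Kdm5d and Uty, and C7, a complement component. The 3 libraries were left out by their levels of Y-linked genes, so the calls of Ddx3y, Eif2s3y, Kdm5d and Uty follow from that choice. The share of 0.0317% is therefore no measure of how many genes differ between the labels. The log2 fold change was then -1.43 (SE 0.65) for Meg3, -0.87 (SE 0.59) for Malat1, -0.85 (SE 0.17) for Rpph1, -0.75 (SE 0.36) for Rmrp, -0.52 (SE 0.41) for Neat1 and 1.44 (SE 0.37) for Snord17. That of Rny3 moved to -0.28 (SE 0.82), against -1.30 with all 8 libraries, that of Snhg11 to -0.06 (SE 0.44), and those of Rny1 and Gas5 to 0.09 (SE 0.37) and 0.21 (SE 0.51). The limma adjusted p of each member was 0.9995 in that fit.

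**Figure D2:**
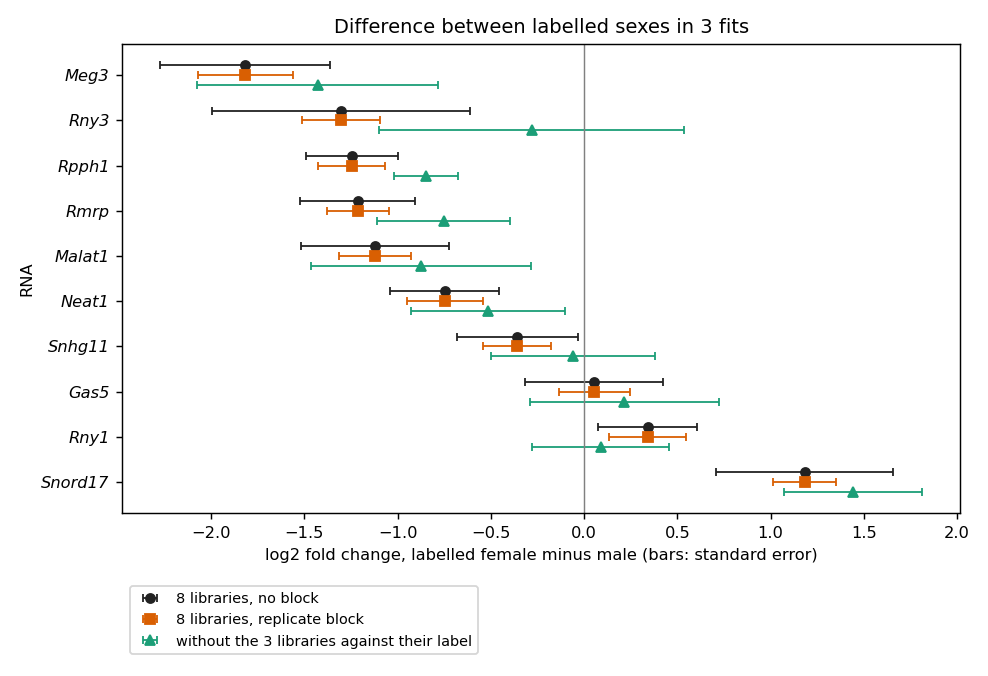
Log2 fold change of each RNA, labelled female minus labelled male, with its standard error, from limma on all 8 libraries, on all 8 with the replicate number as a block, and on the 5 libraries left without the 3 that go against their label. Meg3, Rny3, Rpph1, Rmrp, Malat1, Neat1 and Snhg11 lie below 0 in each fit, and Snord17, Rny1 and Gas5 above it. Bars are narrower under the block than without it, and Rny3 moves most when the 3 libraries are left out.

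The members did not all vary together. Over the 45 pairs, Pearson's r of log2(CPM + 1) across the 8 libraries was positive in 33, and 4 pairs passed an exact two-sided permutation test over all orders of the libraries with Benjamini-Hochberg adjustment over the 45. All 4 joined long RNAs. Malat1 and Meg3 had r = 0.95 (p 0.000149, adjusted 0.0067) and Spearman's rho = 0.93 (p 0.00223, adjusted 0.0685). Meg3 and Neat1 had r = 0.96 (p 0.000868, adjusted 0.0164) and rho = 0.90 (p 0.00456, adjusted 0.0685). Malat1 and Neat1 had r = 0.94 (p 0.00109, adjusted 0.0164) and rho = 0.81 (p 0.0218, adjusted 0.14). Neat1 and Snhg11 had r = 0.89 (p 0.00337, adjusted 0.0379) and rho = 0.90 (p 0.00456, adjusted 0.0685). No pair passed by rank: Spearman's rho called 0 of 45 after adjustment and 10 at an unadjusted p under 0.05. These p-values are all from exact permutation tests that treat the 8 libraries as exchangeable. Pairing by number, which was taken from the data and is weakest for number 1 (correlation 0.288), is not allowed for. The p-values may therefore be too small.

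Without the 2 libraries farthest from the median of the first RNA named, r was 0.85 for Malat1 and Meg3, 0.93 for Meg3 and Neat1, 0.83 for Malat1 and Neat1 and 0.71 for Neat1 and Snhg11. With the mean of each label removed, these r were 0.93, 0.96, 0.90 and 0.93 in the same order. The exact test, which then permutes within labels, called 0 pairs after adjustment (smallest adjusted p 0.156) and 7 at an unadjusted p under 0.05. Permuting within labels allows far fewer orders than permuting all 8 libraries, so small p-values are harder to reach. Its count of 0 therefore cannot be read as weaker correlation. Leaving out female 4, male 2 or male 4 left 0 pairs called, with a smallest adjusted exact permutation p of 0.0536 in each case, although r over the 6 pairs of Malat1, Meg3, Neat1 and Snhg11 stayed between 0.59 and 0.98 under every single omission. No value is given within 1 label, since each holds 4 libraries, nor without the 3 libraries against their label, which leaves 5. For scale, of 15710 genes outside the members, 0.102% reached r of 0.9 or more with each of Malat1, Neat1 and Snhg11, 0.146% with Meg3, 0.0573% with Rpph1, 0.115% with Rny1, 0.172% with Rny3, 0.236% with Gas5, 0.261% with Snord17 and 0.306% with Rmrp. At r of -0.9 or less there were 0.885% with Malat1, 1.36% with Neat1, 0.401% with Snhg11 and 3.06% with Meg3. The same share was 3.52% with Rpph1, 0.0127% with Rny1, 2.55% with Rny3, 0.0764% with Gas5, 0.0446% with Snord17 and 1.44% with Rmrp.

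**Figure D3:**
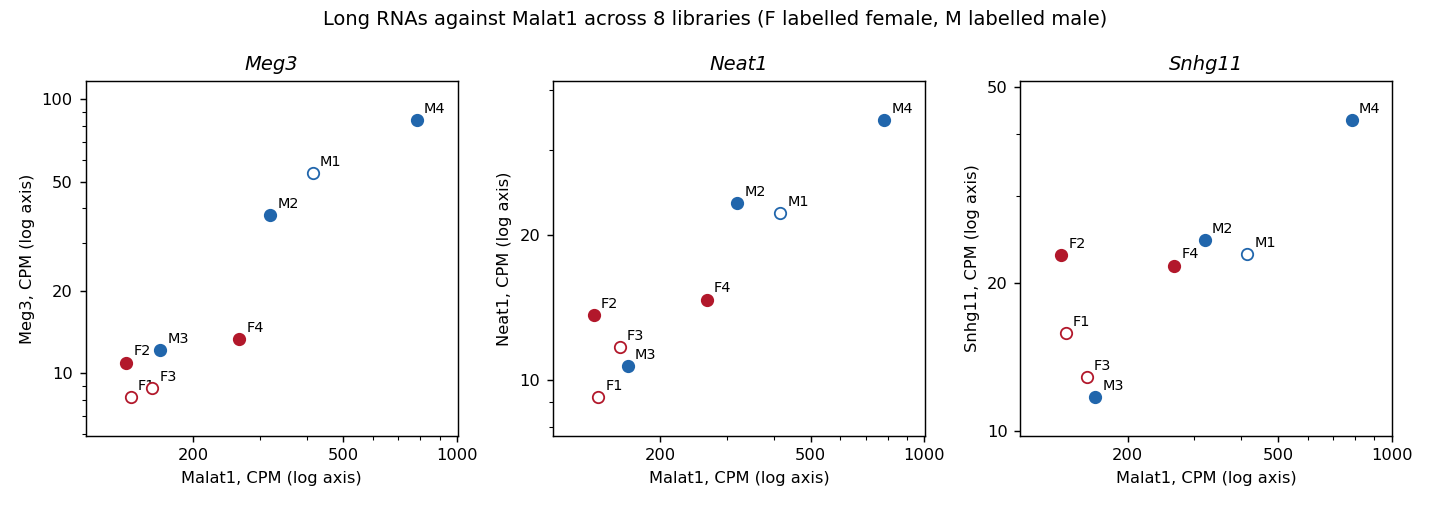
Meg3, Neat1 and Snhg11 against Malat1, in CPM on log axes, with 1 point per library (F labelled female, M labelled male; open circles go against their label). The library labelled male 4 is highest on every axis, and male 3 lies near the female-labelled libraries.

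The other members had no pair past the threshold on the values as deposited. Gas5, although a long spliced RNA, had r between -0.17 and 0.50 with the 9 others. Rmrp and Rny3 had r = 0.85 (adjusted exact permutation p 0.0746, rho = 0.69), Rmrp and Rpph1 0.68 (adjusted 0.197), and Rpph1 and Snord17 -0.72 (adjusted 0.176). Rpph1 and Meg3 had r = 0.81 (adjusted exact permutation p 0.0855, rho = 0.88), as high as Meg3 and Snhg11 at 0.80 (adjusted 0.0855), and Rny3 had r = 0.78 with Neat1 and 0.76 with Snhg11 (adjusted 0.127 each). On rescaling to protein-coding reads 8 pairs were called: all 6 among Malat1, Meg3, Neat1 and Snhg11, with Rmrp and Rny3 (r = 0.87, adjusted exact permutation p 0.0476) and Rpph1 and Meg3 (r = 0.84, adjusted 0.0476). Median-ratio scaling called the same 8. Among the 4 short RNAs Rmrp, Rpph1, Rny1 and Rny3, r ranged from -0.55 to 0.85 over 6 pairs. The highest library of the 4 labelled female and of the 4 labelled male carried the same number for 7 members: number 2 for Rmrp, Rny3 and Snord17, and number 4 for Malat1, Meg3, Neat1 and Gas5. The share of all genes for which this holds was not computed. Same-numbered libraries were also alike over all genes tested (correlations of 0.288 to 0.592 of deviations from the label mean). The count is therefore no trait particular to the members.

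**Figure D4:**
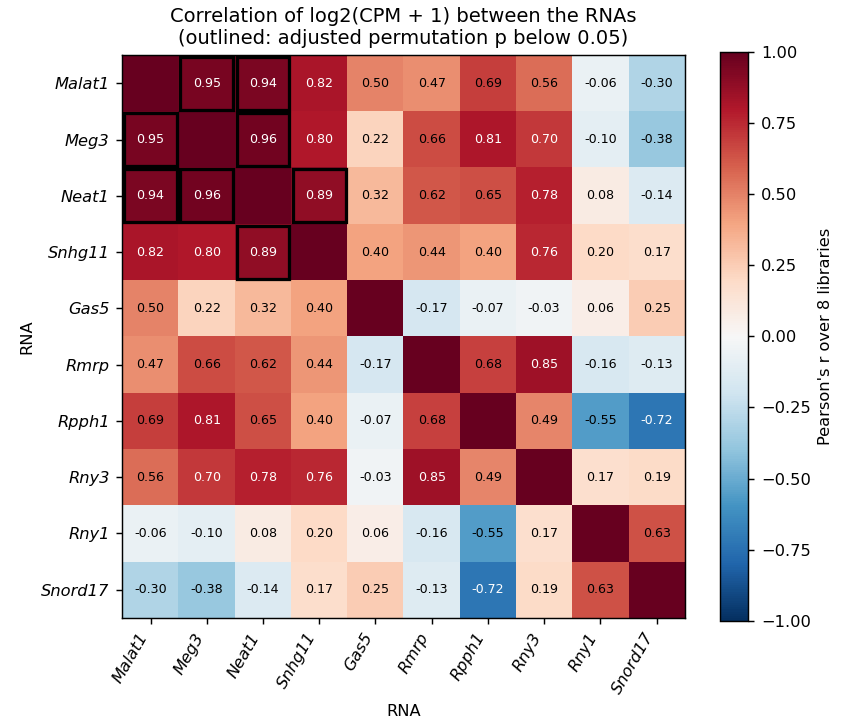
Pearson's r of log2(CPM + 1) over the 8 libraries for each pair of RNAs, from -1 (blue) to 1 (red), with the 4 pairs of adjusted permutation p below 0.05 outlined. The outlined pairs are among Malat1, Meg3, Neat1 and Snhg11, while Rny1, Gas5 and Snord17 have pale or blue cells with most of the others.

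Outside the members, the 9589 genes averaging 10 CPM or more were ranked by r with 7 of them over the 8 libraries, as a description. Closest to Rny3 were Gm25189, a small nuclear RNA (r = 0.96), the galectin ligand Lgals3bp (0.95) and Rn7sk (0.95), the RNA that holds the elongation factor P-TEFb inactive. Closest to Rpph1 were the snoRNA Rnu3a (0.94), the laminin chain Lama5 (0.94) and Mdga1 (0.93). For Rmrp they were Cntnap2, a neuronal adhesion protein (0.96), Tmem181a (0.95) and Sema7a (0.95), and for Rny1 they were Zfp146 (0.96), Hmgn1 (0.94) and Tmem64 (0.91). Malat1 was followed by Gm37357 (0.97), the potassium channel subunit Dpp6 (0.94) and the collagen Col18a1 (0.93). Meg3 was followed by Tmem245 (0.98), Dpp6 (0.96) and Tmprss11a (0.96), so Dpp6 stood among the 3 closest for both long RNAs. Gas5 had Mir25 (0.93), Fcgr2b (0.93) and Kdelc1 (0.92).

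RNAs of the same kinds were set beside the members by fixed lists, none of which had a gene called in the comparison of 4 against 4. Of 8 other RNA polymerase III transcripts and spliceosomal RNAs tested, all 8 had lower means in female-labelled libraries, with a median log2 fold change of -0.75 against 0.15 over all genes. That median was 0.05, the other way, without the 3 libraries against their label. Vaultrc5, the vault RNA, was at 1579, 1245, 1135 and 2287 CPM in the female-labelled libraries, against 5966, 2264, 1454 and 5562 CPM in the male-labelled ones, with a log2 fold change of -1.10 (SE 0.42). Rn7sk was at 6.63, 48.3, 7.9 and 29.6 CPM in the female-labelled libraries, against 37.9, 79.1, 10.7 and 88.9 CPM in the male-labelled ones, with a log2 fold change of -1.25 (SE 0.71). Both fell with the replicate block (limma adjusted p 0.0186 and 0.0248), while Rnu11, an RNA of the minor spliceosome at 899 ± 362 CPM (female-labelled) and 1051 ± 623 CPM (male-labelled; SD, n = 4 each), had a log2 fold change of -0.13 (SE 0.36, limma adjusted p 0.65 with the block). Rn7sk shared with Rny3 its low values in female 1, female 3 and male 3.

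Among 58 C/D box snoRNAs tested other than Snord17, 28 had higher means in female-labelled libraries and 30 lower, with a median log2 fold change of -0.01; with the block, Snord45c rose (limma adjusted p 0.033). Of 33 H/ACA box snoRNAs, which guide pseudouridylation, 11 had higher means and 22 lower, and with the block Snora81 rose (limma adjusted p 0.0371) and Snora69 fell (0.0186). Without the 3 libraries against their label these medians were 0.58 and 0.65, with 0 genes called in either list. Among symbols that start with Snord, the 3 with the most reads were Snord83b, Snord85 and Snord67, each with more than Snord17. They were at 265 ± 48.0, 199.7 ± 22.3 and 212 ± 133 CPM in female-labelled libraries and 238 ± 66.0, 169 ± 47.5 and 121 ± 59.9 CPM in the male-labelled ones (SD, n = 4 each). The H/ACA box snoRNAs with the most reads were Snora20, Snora3 and Snora75, with log2 fold changes of 0.40 (SE 0.59), 0.22 (SE 0.11) and -0.10 (SE 0.45). Rescaled to protein-coding reads, where no gene at all passed under the block, Vaultrc5, Rn7sk and Snora69 had log2 fold changes of -1.20 (SE 0.23), -1.35 (SE 0.29) and -1.08 (SE 0.16), and Snord45c and Snora81 of 0.70 (SE 0.13) and 0.95 (SE 0.18). Of 9 small Cajal body RNAs, led by Scarna2, Scarna8 and Scarna13, 2 had higher means and 7 lower, with 0 called with or without the block and a median log2 fold change of -0.38; without the 3 libraries against their label the direction turned, with 8 higher, 1 lower and a median of 0.38.

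Of 10 other host genes of snoRNAs tested, 6 had higher means in female-labelled libraries and 4 lower, none called in any of the 3 fits, and the median log2 fold change of 0.09 turned to -0.01 on rescaling to protein-coding reads. It was 0.41 without the 3 libraries against their label, with 8 of 11 higher. Snhg12 was at 103 ± 40.8 CPM in female-labelled libraries and 100.2 ± 27.7 CPM in the male-labelled ones, Snhg1 at 80.6 ± 19.3 CPM (female-labelled) and 56.1 ± 19.1 CPM (male-labelled), and Dancr at 18.1 ± 9.32 CPM (female-labelled) and 24.8 ± 12.7 CPM (male-labelled; SD, n = 4 each). Of 15 other nuclear and neuronal long RNAs, 7 had higher means and 8 lower, none called, with a median of -0.02, and of -0.06 without the 3 libraries. Rian, from the same imprinted region as Meg3, was at 5.05, 9.63, 5.3 and 13.8 CPM in the female-labelled libraries, against 10.8, 10.8, 6.0 and 23.0 CPM in the male-labelled ones. Like Meg3 it was highest in number 4 under both labels and lowest in male 3 among those labelled male. Peg13, an imprinted RNA of another locus, averaged 60.5 ± 12.5 CPM in female-labelled libraries and 42.9 ± 7.15 CPM in the male-labelled ones, and 6330403K07Rik 35.7 ± 5.22 CPM (female-labelled) and 33.0 ± 12 CPM (male-labelled).

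The mRNAs of proteins known to bind or process such RNAs were set beside them as well. Summed over 11 proteins of RNase P and RNase MRP, including Pop5, Rpp21 and Rpp25l, reads came to 154 ± 10.4 CPM in female-labelled libraries and 129.6 ± 23.6 CPM in the male-labelled ones (SD, n = 4 each). The 10 mRNAs of Y RNA and La-type binding proteins, led by Puf60, Larp1 and Ssb (the La protein), summed to 610.1 ± 74.0 CPM (female-labelled) and 511 ± 80.1 CPM (male-labelled). The 16 mRNAs of paraspeckle and Malat1-binding proteins, led by Matr3, Smarca4 and Hnrnpk, summed to 1567 ± 209 CPM in female-labelled libraries and 1274 ± 203 CPM in the male-labelled ones. The 10 snoRNP proteins, led by Nop56, Nop10 and Nop58, summed to 258 ± 13.4 CPM (female-labelled) and 224 ± 34.3 CPM (male-labelled), and the 14 decay factors, Upf1 and Eif4a3 among them, to 568 ± 60.1 CPM (female-labelled) and 501 ± 63.6 CPM (male-labelled). None of these 61 genes was called with or without the block, and the medians of the 5 lists, between 0.19 and 0.29, stood beside 0.15 over all genes tested; without the 3 libraries against their label they lay between 0.03 and 0.09, beside 0.01 over all genes.

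Mitochondrial ribosomal and transfer RNAs, 18 of them tested, had 6 higher and 12 lower means in female-labelled libraries, with 0 called and a median log2 fold change of -0.27. Without the 3 libraries against their label, 13 were higher and 7 lower of those tested, with a median of 0.17. mt-Rnr2 and mt-Rnr1 had log2 fold changes of -0.94 (SE 0.35) and -1.09 (SE 0.56), and the transfer RNA mt-Tp of 0.07 (SE 0.76). Of 6 rows with many reads that vary widely between libraries, Lars2 among them at 24658 ± 26554 CPM in female-labelled libraries and 32802 ± 29738 CPM in the male-labelled ones (SD, n = 4 each), 0 were called; their median log2 fold change was -0.44, and 0.52 without the 3 libraries.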

How the data were processed

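Levels came from 2 deposited tables of footprint libraries, 1 per labelled sex, with 48431 gene rows each. Spin columns were used to collect RNA bound to ribosomes, per the labels' protocols, then ribosomal RNA was depleted, and fragments of 28 to 34 nt were cut from a gel and made into small RNA libraries. Per the submitters' processing notes, the tools were Cufflinks 2.2.1, Bowtie2 2.2.9, TopHat2 2.1.1 and FastQC 0.11.5, and the builds GRCm38.p4 and mm10; the sources used here name neither the counting step nor the annotation. The deposited values are named as TPM but are CPM: each column sums to 1000000 and 95.7% to 96.5% of the values above 0 come, to within 0.01, to a whole number of steps, the step being the same for every gene. The rest are parts of a read, so no count model was fitted and differences in depth were not modelled. The step gave the assigned reads per library and a floor of 3 reads at 0.236 to 0.811 CPM; intervals and floors cover counting error only.

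Rows of the same symbol were summed (110 symbols). Gene types, lengths, positions and transcript sequences came from GENCODE M21 on GRCm38, which holds 99.2% of the gene identifiers; positions count from 1. The comparison used limma 3.58.1 in R 4.3.3 with an intensity trend on log2(CPM + 1), for genes averaging 1 CPM or more, two-sided, adjusted by Benjamini-Hochberg over all genes; fold changes on this scale understate changes of low genes. Correlations used exact permutations (scipy 1.17.1).

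The members, the lists and the tests were chosen with earlier results of these data known. Named genes were the members, the 3 genes of each list with the most reads, list genes called with or without the block, and the 3 genes most like each of 7 members; others were named after their values were seen, and 1 list gene is not reported here. Deviations from the mean of the label had correlations of 0.288 (number 1), 0.492 (number 2), 0.531 (number 3) and 0.592 (number 4) between same-numbered libraries. Each is over 0.1, so numbers were taken to pair libraries; this comes from the data and not from the labels, and female 1 was most like male 3. Alternatives were another pseudocount (0.1 CPM), other filters (none, or 5 CPM), other scalings, the block, and leaving out libraries. RNA abundance libraries, which the labels' protocols also describe, were not used here.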

Additional observations from a re-analysis of the deposited data

Results flagged for a closer look

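Of 20 groups of 4 libraries (10 RNAs under 2 labels), 2 held a library far from the other 3, both for Gas5 and both in number 4. Gas5 in female 4 was at 22.1 CPM, where the nearest library labelled female was at 7.8 CPM. Gas5 in male 4 was at 15.1 CPM, where the nearest library labelled male was at 7.74 CPM. The rule was Dixon's ratio. By chance it sets a library apart in about 1 of 20 such groups if values are independent and normally distributed, which was not checked.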

How the results depend on the processing

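Of 210 pairs of a member and an alternative, 174 kept both the direction of the difference between labels and its side of the threshold, 28 became called, all under the replicate block, and 8 turned direction, all for Gas5. Apart from the fit without the libraries against their label, every alternative without the block called 0 genes. The rescaled block called 0 too. In those settings, staying on the same side of the threshold says little about stability. The log2 fold change of Gas5 was -0.036 on rescaling to protein-coding reads with or without the block, -0.089 under median-ratio scaling and -0.10 in the block without number 4, and ranged from -0.34 to 0.29 when 1 library was left out. The count of genes called was 0 as compared, 27 with the replicate block and 5 without the libraries against their label. Those 5 include Y-linked genes, by whose levels these libraries were left out. With the block, the count of genes called was 6, 100, 163 and 126 when numbers 1, 2, 3 and 4 were left out. For list genes the count was 0, 5 with the block, and 1, 11, 20 and 15 in the same omissions. With the block, members called were 6, and 3, 6, 7 and 6 in these omissions. The omissions leave few pairs, so their counts lean on the spread that limma pools over genes. Correlated pairs numbered 4, but 8 on rescaling, 8 under median-ratio scaling, 0 by rank, 0 with label means removed (a test with far fewer orders), and 0 to 5 with 1 library left out. The causes were not tested. No replicate block was run for correlations, since it leaves 4 independent differences; count tests were not run, since values include parts of reads. For the difference between labels, averaging female 1 with female 3 was chosen after seeing the data, as were the omissions of numbers under the block and the rescaled block. Female 1 and female 3 were alike in composition (93.8% and 93.1% protein-coding reads) and may not be independent. With female 1 and female 3 averaged, 0 of 15724 genes and 4 of 45 pairs were called. Gas5, at 24.5 reads in the shallowest library, is the member that depth limits most.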

Other observations

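Some small RNAs outside the members were high in the libraries of 1 number under both labels; they were chosen after their values were seen. The H/ACA box snoRNA Snora16a was at 1.22, 4.1, 0.695 and 148 CPM in the libraries labelled female 1 to 4, against 5.41, 3.77, 1.42 and 165 CPM in those labelled male 1 to 4, so number 4 stood far above the rest under both labels. Snora68 was at 5.24, 29.6, 4.6 and 188 CPM in the libraries labelled female, against 17.6, 27.3, 5.27 and 296 CPM in those labelled male, with the same number highest.

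Number 2 was the high one for Rnu12, an RNA of the minor spliceosome, at 0.524, 108, 0.955 and 3.18 CPM in the libraries labelled female, against 4.87, 51.5, 1.34 and 3.83 CPM in those labelled male. Scarna10, a small Cajal body RNA, had 8.0 CPM in female 2, against 8.1 CPM in male 2. It was at 0 in female 1, female 3, male 1 and male 3, with 1.23 CPM in female 4, against 1.97 CPM in male 4. No test was run on these choices.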
